A study of Mus musculus with 8 samples.

Results

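The genes described here encode the translation initiation factors of mouse pancreatic beta cells, the proteins that bring the ribosome, the initiator tRNA and the messenger RNA together. They were chosen by symbol (Eif1 to Eif6, without the Eif2ak kinases, the eIF2 gamma genes Eif2s3x and Eif2s3y and pseudogenes) and by a measured value, a mean normalized count of at least 10 over the 8 libraries. Of 44343 genes in the table, 50 symbols fitted the name and 47 also reached the mean. The 3 symbols below it were Eif4e1b at 8.05, Eif2c5 at 3.51 and Eif4ebp3 at 3.17, and the lowest of the 47 were Eif3j2 at 33.2 and Eif5a2 at 120.2. The name covers more than strict initiation factors: eIF4E-binding proteins inhibit initiation, eIF5A acts mainly in elongation, Eif4a3 is a core helicase of the exon junction complex, and eIF6 keeps the large ribosomal subunit apart from the small one.

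The study compared beta cells that lose Adar, an RNA-editing enzyme that converts adenosines of double-stranded RNA into inosines, with beta cells that keep 1 allele. Knockout (KO) libraries came from MipCreER; Adar floxed/floxed; R26R-EYFP mice and control (Het) libraries from mice of the same make-up with Adar floxed/+, 4 of each. All mice were 1 month old, carried the Cre and the reporter, received 2 doses of 8 mg tamoxifen, and gave YFP-positive beta cells by sorting 7 days later. MipCreER is a tamoxifen-inducible recombinase under an insulin promoter, so the floxed allele is lost in beta cells only where Cre was active, and the controls are heterozygous and not wild type. The labels do not say whether libraries of a group came from separate mice. The p-values below thus measure the spread between libraries, which may be in part technical.

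Initiation begins when eIF2, loaded with GTP and the initiator tRNA, joins the small ribosomal subunit together with eIF1, eIF1A, eIF5 and the large eIF3 complex. The eIF4F complex, made of the cap-binding protein eIF4E, the scaffold eIF4G and the helicase eIF4A, recruits this assembly to the capped end of the messenger RNA, and eIF4E-binding proteins compete with eIF4G for eIF4E. Phosphorylation of eIF2 alpha by stress kinases, among them PKR, which double-stranded RNA activates, blocks the exchange factor eIF2B and lowers initiation. In beta cells, which make very large amounts of proinsulin, this step is known to limit the load on the endoplasmic reticulum.

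The 8 libraries differed in depth and in scale, and held 5370765 to 15883473 reads. Under the scaling in which the values were deposited, the 6697 genes whose mean was 200 or more had a median level that spanned a 3.33-fold range, being highest in KO 1 and KO 2 and lowest in KO 3 and KO 4. Reads of olfactory and vomeronasal receptor genes, which beta cells are not known to use, took 0.0498% and 0.0353% of reads in KO 1 and KO 2, 0.327% and 0.294% in KO 3 and KO 4, and 0.0868% to 0.244% in Het. KO 3 also had the highest share of mitochondrial ribosomal RNA, 16.1% against 5.97% to 9.10% for the other libraries. Xist was low in Het 1 (male reads), Ddx3y was at or near 0 in KO 3 and KO 4 (female reads), and the remaining 5 libraries had ample reads of each. The libraries of a group thus did not all come from the same mice, and sex was not balanced between Het and KO. The 10 beta-cell markers summed to 93300 to 118000 RPM (reads scaled to library size) in Het and 36800 to 107000 in KO, with none at 0. The 7 acinar markers summed to 4.84 to 11.7 and 2.58 to 22.5 (2 of them at 0 in some library) and the 7 leukocyte markers to 9.44 to 24.0 and 8.02 to 54.8. Of the leukocyte markers, Cd74 alone gave 50.4, 5.48, 10.6 and 25.9 RPM in KO 1 to KO 4 and 1.40 to 1.98 in Het. Ptprc stood at 2.08, 0.926, 12.5 and 11.4 RPM in KO 1 to KO 4 and 3.12 to 9.76 in Het. Because of the level differences, each result is given under the deposited scaling and under a scaling computed from those 6697 genes with TMM factors (trimmed mean of M-values), called expressed-gene scaling below.

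The initiation factors broadly followed the level of expressed genes, least closely in KO 3. Under the deposited scaling their median, as log2 distance from each gene's mean over the libraries, was −0.29, −0.16, 0.21 and −0.57 in Het 1 to Het 4 and 1.02, 0.98, −0.47 and −0.61 in KO 1 to KO 4. The same median over the 6697 genes was −0.25, 0.00, 0.22 and −0.46 in Het and 0.88, 0.96, −0.77 and −0.56 in KO. KO 1 and KO 2 were thus above all Het libraries and KO 4 below them all, for the initiation factors as for expressed genes at large. KO 3 was below all Het libraries for expressed genes, but above Het 4 for the initiation factors. After expressed-gene scaling the members' median lay between −0.16 and −0.01 in Het and at 0.15, 0.03, 0.31 and −0.04 in KO, so that KO 3 moved from low to highest.

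**Figure D1:**
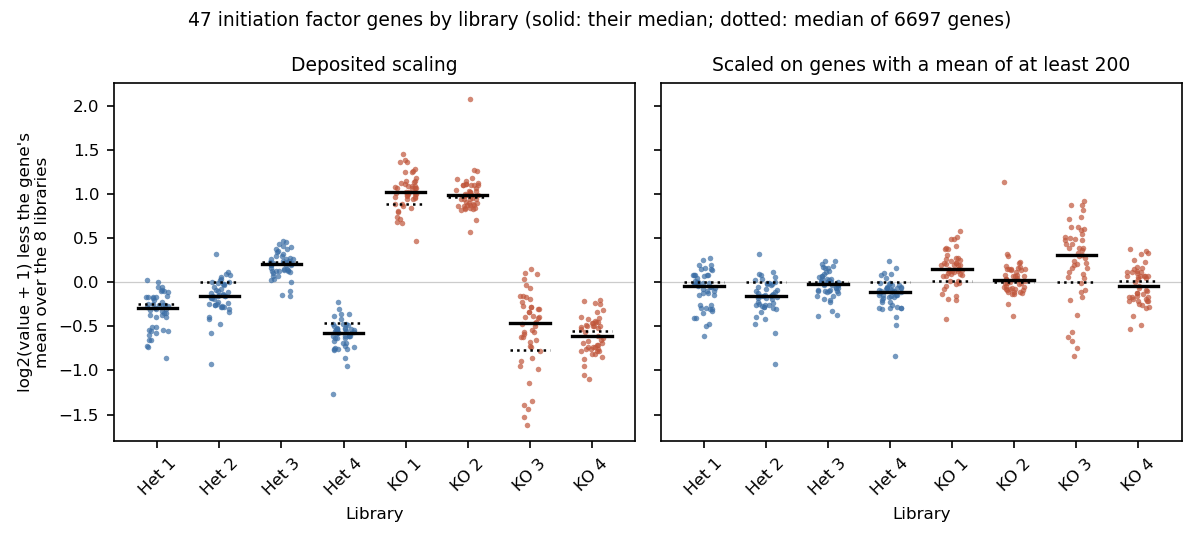
Each point is 1 of the 47 initiation factor genes in 1 library, as log2(normalized count + 1) less the gene's mean over the 8 libraries; solid lines are the genes' median and dotted lines the median of the 6697 genes whose mean was 200 or more. Under the deposited scaling (left) KO 1 and KO 2 sit near 1 for both medians. KO 4 sits near −0.6 for both, and KO 3 at −0.47 for the members and −0.77 for the 6697 genes. After expressed-gene scaling (right) the libraries come together while the points of KO 3 stay the most spread.

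As a share of all reads, which needs no scaling factor, the 47 genes took 0.566%, 0.571%, 0.580% and 0.556% in Het 1 to Het 4 and 0.828%, 0.677%, 0.551% and 0.713% in KO 1 to KO 4. The share was above every Het library in KO 1, KO 2 and KO 4 and below every one in KO 3, where mitochondrial ribosomal RNA was high. Its mean was 0.568% ± 0.00982 in Het and 0.692% ± 0.114 in KO (SD, n = 4 each), and the exact two-sided permutation p was 0.143 (0.0286 is the smallest that the 70 arrangements allow). KO 1 and KO 4, which had the highest shares, had the lowest sums of beta-cell markers, 36780 and 42120 RPM. These sums are mostly Ins2 and Ins1, and the other markers were mixed. Ucn3 stood at 98.5 and 134 RPM in KO 1 and KO 4 and 252 to 293 in Het, and Iapp at 7877 and 6987 against 7955 to 10570. In KO 1 Slc2a2 and Slc30a8 were also below every Het library, at 184 and 202, but not in KO 4. Mafa went the other way, at 327 and 448 RPM in KO 1 and KO 4 and 245 to 309.5 in Het. In KO 4 Nkx6-1 and Pdx1 were also above every Het library, at 327 and 209. The part of these quantities in the share was not tested, and in sorted bulk cells a change in the number of cells of a type and a change in RNA per cell cannot be told apart.

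None of the 47 genes passed the test of KO against Het under the deposited scaling. There limma called 0 higher and 0 lower at an adjusted p under 0.05, where 0.921% of the 21498 genes tested were called higher and 0.0233% lower. Members with an unadjusted limma p under 0.05 were 2 higher, Eif3j2 and Eif5a2, and 0 lower, against 4.05% and 2.7% of all genes. The members' median log2 fold change was 0.46, with 45 of 47 positive, beside 0.05 over all tested genes and 0.24 over the 6697 well-expressed ones. Positive values were found in 54.3% of all tested genes and 76.2% of the well-expressed ones. No member had all 4 KO values above or below all 4 Het values, against 2.19% and 0.893% of genes.

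On the full set of genes, 1 of the other scalings and tools gave calls among the members. With TMM scaling, under which the all-gene median fell by 0.21 on the log2 scale, limma called 0 and 0 members (all genes 0.637% higher and 0.0372% lower), with 5 higher at an unadjusted p under 0.05 (5.34% of genes) and 37 of 47 positive around a median of 0.24, beside −0.16 for all genes and 0.02 for the well-expressed ones. Counted on whole reads, edgeR called 0 and 0 (0.673% and 0.0343%), with 4 higher at an unadjusted p under 0.05 (4.75%, and 502 of the 6697 well-expressed genes). DESeq2 also called 0 and 0 (0.476% and 0.00677%), with 9 higher at an unadjusted p under 0.05. That share was 3.65% over all 44343 genes, most of them low, and 643 of the 6697 well-expressed genes. With quantile scaling, limma called Eif2s2, Eif3c and Eif5 higher, 3 of 47, where 1.49% of all genes and 3% of the well-expressed ones were called higher.

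Under expressed-gene scaling, which tests the 43 members with a mean of at least 200, limma called 1 member higher, Eif2s2, and 1 lower, Eif4ebp2. Of the 6697 genes tested there, 6.03% were called higher and 4.24% lower. The members with an unadjusted p under 0.05 were 12 higher and 1 lower, against 15.6% and 15.3% of genes. The members' median log2 fold change was 0.18 with 32 of 43 positive, beside −0.00 for all 6697 genes, of which 49.8% were positive. In 10 of the 43 members (23.3%) all 4 KO values lay above all 4 Het values, against 11.7% of genes, and in 1 (2.33%) they lay below, against 10.3%. The 10 were Eif1, Eif1ax, Eif2a, Eif2b2, Eif2s2, Eif3c, Eif3d, Eif3e, Eif3m and Eif5, and the 1 was Eif4ebp2.

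**Figure D2:**
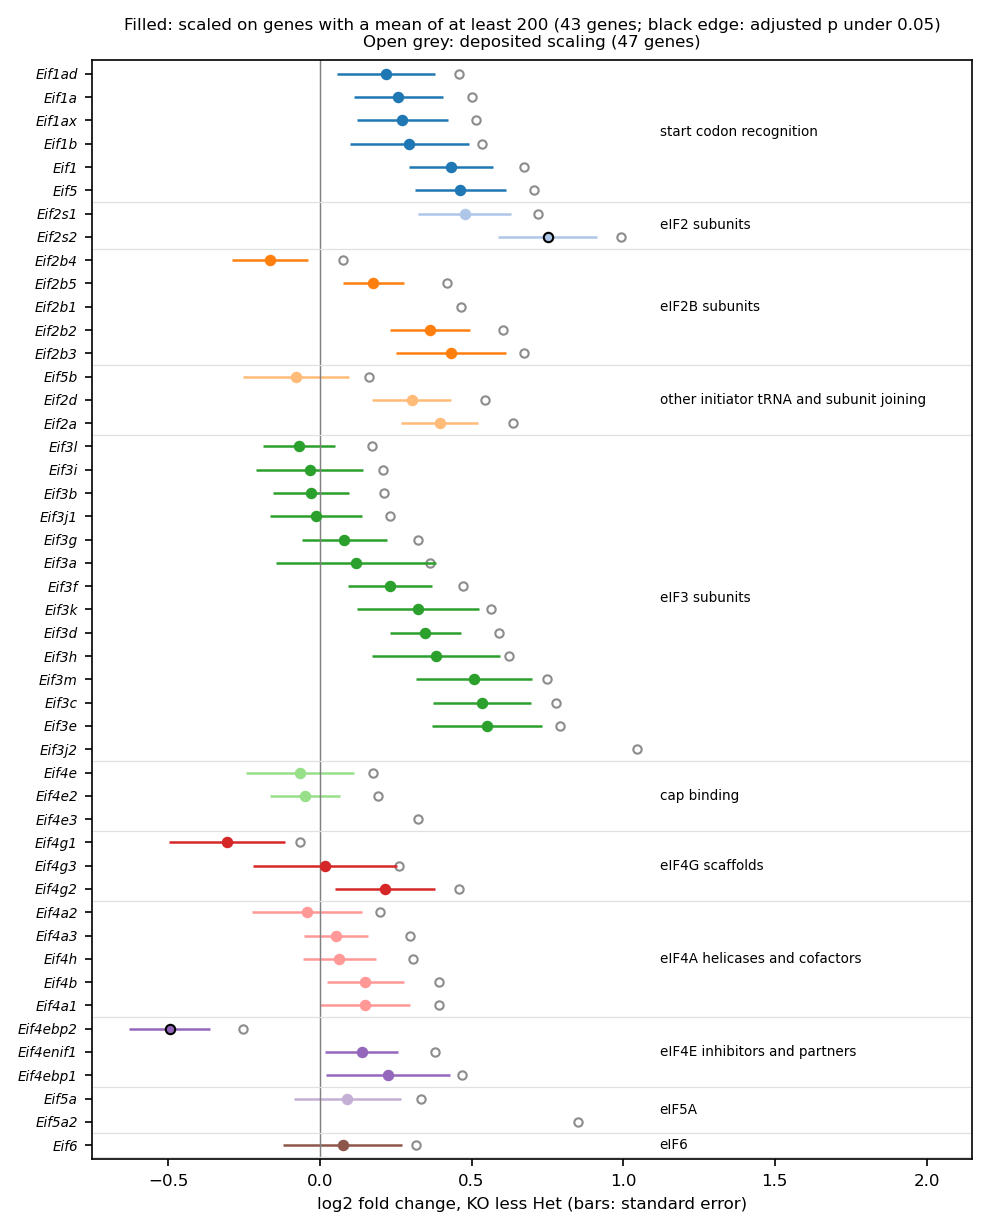
The log2 fold change, KO less Het, of each initiation factor gene by role: filled points with standard errors are limma estimates under expressed-gene scaling (43 genes) and open grey points are estimates under the deposited scaling (47 genes). The open points lie to the right of the filled ones throughout, and the 2 points with a black edge, Eif2s2 at 0.75 and Eif4ebp2 at −0.50, are those with an adjusted p under 0.05.

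Under the deposited scaling the direction differed between the pairs of KO libraries. Without KO 3 and KO 4, limma called 47 of 47 members higher, where 45.5% of all genes tested and 89.8% of the 6697 well-expressed genes were called higher, and the median was 1.23. Without KO 1 and KO 2 it called 2 lower, Eif4ebp2 and Eif4g1, where 7.45% of genes were called lower, and the median was −0.38. With expressed-gene scaling the median was 0.18 without KO 3 and KO 4 and 0.15 without KO 1 and KO 2. These splits were made after the libraries' levels were seen.

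Of the promoters of the 47 genes, 37 had an entry in RefSeq for GRCm38.p6, covering the stretch just before and after the annotated start. The ETS motif CCGGAAGT stood on either strand in 6 of these 37 (16.2%: Eif2b2, Eif2b4, Eif3d, Eif3l, Eif4e2 and Eif5a2), against 4.0% of 27025 promoters. A longer ZNF143-type motif stood in Eif2s2 and Eif3c (5.41%, against 0.803%), and it was searched for after these sequences had been read. The interferon-stimulated response element was found in 1 of 37, Eif2s1 (0.840% of all promoters), and the NRF1 motif in 1 of 37, Eif3k (0.977%). No member's window held the YY1 motif (0.699% of all promoters), the letters TGATGCAA of C/EBP-ATF sites (0.929%) or the cyclic AMP element TGACGTCA (1.88%). A match is a run of letters and not a bound site. The 27025 promoters were not limited to genes expressed in these cells, unlike the members, and the share among expressed genes was not computed. The 200 bases before the first annotated base (the RefSeq or GENCODE start, whichever lay further upstream) are given 5′ to 3′ on the gene's strand for the member called higher (Eif2s2, chr2:154892936-154893135, minus strand), the member called lower (Eif4ebp2, chr10:61452670-61452869, minus strand), the member with the smallest limma p after Eif3j2 under the deposited scaling (Eif5a2, chr3:28781076-28781275, plus strand) and the most abundant eIF3 subunit per length (Eif3c, chr7:126566412-126566611, minus strand). Capitals mark the ZNF143-type motif in Eif2s2 and, on the opposite strand, in Eif3c, and the ETS motif in Eif5a2. Eif4ebp2 held none of the motifs searched. G and C made up 52.0% of the stretch of Eif2s2 and 50.5% of that of Eif3c, and more of the others.
Eif2s2: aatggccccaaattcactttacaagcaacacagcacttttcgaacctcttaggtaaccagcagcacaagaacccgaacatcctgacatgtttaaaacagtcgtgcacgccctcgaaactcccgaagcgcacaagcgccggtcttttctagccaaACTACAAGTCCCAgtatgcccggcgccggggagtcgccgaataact
Eif4ebp2: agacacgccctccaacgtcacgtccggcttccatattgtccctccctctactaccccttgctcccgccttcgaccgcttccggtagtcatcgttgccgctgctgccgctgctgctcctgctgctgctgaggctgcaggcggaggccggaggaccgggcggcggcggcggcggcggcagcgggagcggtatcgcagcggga
Eif5a2: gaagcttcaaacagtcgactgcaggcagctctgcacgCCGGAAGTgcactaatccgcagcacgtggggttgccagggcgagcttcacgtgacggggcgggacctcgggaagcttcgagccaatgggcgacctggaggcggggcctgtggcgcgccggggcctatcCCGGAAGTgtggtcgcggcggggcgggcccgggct
Eif3c: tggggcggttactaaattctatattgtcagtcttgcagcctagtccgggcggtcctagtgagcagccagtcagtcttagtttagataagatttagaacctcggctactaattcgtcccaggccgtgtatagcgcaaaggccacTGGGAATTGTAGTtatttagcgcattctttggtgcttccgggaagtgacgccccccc

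The levels of the members differed widely. Per kilobase of merged exons, the highest deposited normalized counts in Het were those of Eif1 at 1027 ± 263 (SD, n = 4), Eif3c at 813 ± 212, Eif3a at 587 ± 147, Eif5a at 581 ± 188 and Eif4g2 at 572 ± 153. From Eif3a to Eif4g2 the levels differed by less than their SDs. The lowest were Eif3j2 at 7.96 ± 4.62, Eif5a2 at 15.4 ± 2.84 and Eif2b3 at 23.7 ± 2.33. The second eIF5A gene, Eif5a2, was thus far below Eif5a, and Eif1ax at 29.7 ± 7.68 was below Eif1a at 154 ± 30.2, although reads of the near-identical pairs Eif1a and Eif1ax, and Eif3j1 and Eif3j2, may be split between them in a way not stated.

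The eIF2 subunits, which carry the initiator tRNA, had the highest median log2 fold change of any role, over only 2 genes, at 0.86 as deposited and 0.61 under expressed-gene scaling, although single members of other roles, such as Eif3j2 at 1.05 as deposited, were higher. Eif2s2 encodes eIF2 beta (mm10 chromosome 2, 154871410 to 154892935, minus strand). Its deposited normalized counts were 664, 806, 1376 and 711 in Het 1 to Het 4 and 3090, 2722, 1079 and 907 in KO 1 to KO 4, and KO 3 and KO 4 lay below Het 3. Under expressed-gene scaling the counts were 858, 877, 1281 and 1066 in Het and 1835, 1525, 2013 and 1464 in KO, and every KO library lay above every Het library. The log2 fold change there was 0.75 ± 0.16 (SE; 95% interval 0.39 to 1.11; limma adjusted p = 0.0209; two-sided exact permutation p = 0.0286, the smallest possible), and under the deposited scaling it was 0.99 (limma adjusted p = 0.827). Over the 37 settings run, the log2 fold change of Eif2s2 was positive in 37, from 0.22 to 1.77, and it was called in 12, with adjusted p from 1.60e-07 to 1.00. With expressed-gene scaling the call was lost without Het 1 (limma adjusted p = 0.0794), Het 2 (0.0788) or KO 1 (0.0632) and kept without each of the other 5 libraries (0.0164 to 0.0488). It was also lost there in the libraries of both sexes only (0.123), a setting in which limma called 0 of the 6697 genes.

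Eif2s1, which encodes eIF2 alpha, the subunit that stress kinases phosphorylate, was not called. Its expressed-scaled counts were 396, 434, 457 and 503 in Het and 653, 587, 803 and 484 in KO, where KO 4 fell within the Het range. The log2 fold change was 0.48 ± 0.15 (SE, 95% interval 0.14 to 0.81, limma adjusted p = 0.0678). The ratio of Eif2s2 to Eif2s1 reads, which no scaling touches, was 2.28 ± 0.354 in Het and 2.74 ± 0.230 in KO (SD, n = 4), with overlapping groups. The gamma subunit has 1 gene on each sex chromosome and no member here. Eif2s3x stood at 250 in Het 1, the library of males only, at 325 to 371 in the other Het libraries and at 340 to 476 in KO on the expressed scale (limma adjusted p = 0.380), and Eif2s3y at 346 in Het 1, 83.9 to 127 in the other Het libraries, 241 and 207 in KO 1 and KO 2 and 0 in KO 3 and KO 4 (0 reads, which allows up to 3).

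The eIF2B subunits, which recharge eIF2 with GTP, were not called under any of these scalings (lowest limma adjusted p = 0.0926, Eif2b2, expressed-gene scaling). Eif2b5, the catalytic subunit and the one with the highest mean count, stood at 457, 422, 472 and 444 expressed-scaled counts in Het and 553, 471, 492 and 514 in KO, so that KO 2 fell just below the highest Het library. Its log2 fold change was 0.18 ± 0.10 (95% interval −0.05 to 0.40). Eif2b3 stood at 205, 158, 162 and 210 in Het and 226, 192, 319 and 264 in KO on the same scale, and KO 2 fell within the Het range. Its log2 fold change was 0.43 ± 0.18 (limma adjusted p = 0.134). Eif2b2 had no overlap on that scale, at 185 to 247 in Het and 252 to 296 in KO, while Eif2b1, which was below the mean of 200, and Eif2b4 overlapped. Eif2b4 had a log2 fold change of 0.08 as deposited and −0.16 ± 0.12 under expressed-gene scaling.

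Start codon recognition rests on eIF1, eIF1A and eIF5. The 6 genes grouped here also take in Eif1ad, whose part in this step was not tested. All 6 had positive log2 fold changes in the 6 combinations of scaling and tool above. None was called except Eif5 under quantile scaling (limma adjusted p = 0.0445). In those combinations 47.2% (quantile scaling) to 91.5% (DESeq2) of the well-expressed genes were positive. Eif5 encodes the GTPase activator of eIF2 (chromosome 12, 111538016 to 111546752). Its expressed-scaled counts were 2962, 2941, 3316 and 2872 in Het and 5034, 4026, 3685 and 4006 in KO, with no overlap, and its log2 fold change was 0.46 ± 0.15 (95% interval 0.13 to 0.79, limma adjusted p = 0.0696, and from 7.46e-06 to 1.00 over the 37 settings). Eif1, which guards against initiation at wrong codons and was named after its values were seen, stood at 2299 to 2708 in Het and 3030 to 3794 in KO on that scale, also without overlap, and its log2 fold change was 0.43 ± 0.14 (limma adjusted p = 0.0683). Eif1b, a paralog of Eif1, stood at 177, 205, 227 and 213 in Het and 223, 252, 373 and 190 in KO and overlapped (0.29 ± 0.20, limma adjusted p = 0.327). Eif1ax did not overlap, at 151 to 199 in Het and 199 to 257 in KO, where the highest Het and lowest KO values were nearly equal, while Eif1a and Eif1ad did overlap.

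Of the factors for other routes of initiator tRNA delivery and for subunit joining, Eif2a, an eIF2-independent tRNA carrier, stood at 224, 281, 297 and 303 expressed-scaled counts in Het and 359, 350, 395 and 342 in KO. The groups did not overlap, and the log2 fold change was 0.40 ± 0.13 (limma adjusted p = 0.0684). Eif5b, the GTPase that joins the ribosomal subunits, stood at 1837, 1732, 1936 and 1654 in Het and 2062, 1882, 1176 and 1789 in KO, with KO 3 lowest of all libraries and a log2 fold change of 0.16 as deposited and −0.08 ± 0.17 under expressed-gene scaling. Eif2d had a log2 fold change of 0.30 ± 0.13 there (limma adjusted p = 0.141).

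**Figure D3:**
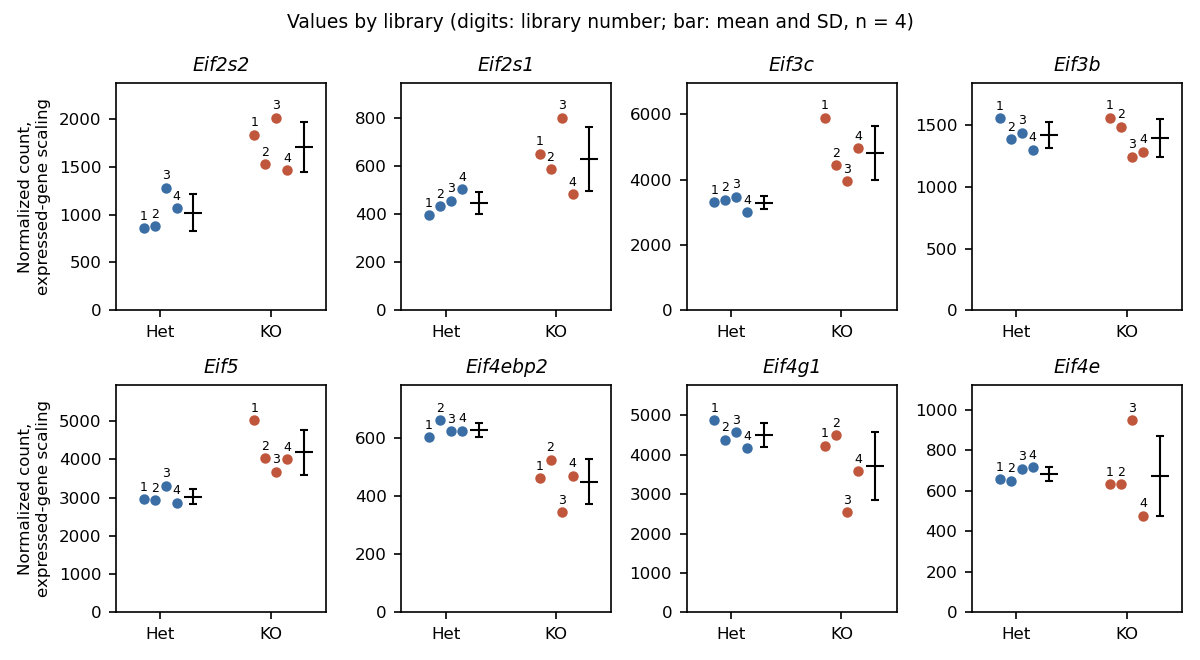
Normalized counts under expressed-gene scaling (linear axes from 0) of 8 initiation factor genes in each Het and KO library, with library numbers beside the points and the mean and SD (n = 4) as bars. All 4 KO points lie above all Het points for Eif2s2, Eif3c and Eif5 and below them for Eif4ebp2, whereas Eif3b and Eif4e overlap and the KO 3 point of Eif4g1 lies far below the rest.

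The eIF3 complex, the scaffold of the small-subunit assembly, had 14 member genes, all with positive log2 fold changes under the deposited scaling (median 0.52). Under that scaling 76.2% of the well-expressed genes were positive, with a median of 0.24. Of the 13 tested under expressed-gene scaling 9 were positive, with a median of 0.23 and no call. Eif3c (chromosome 7, 126546455 to 126566411, minus strand), a core subunit, stood at 3318, 3383, 3479 and 3001 in Het and 5903, 4454, 3946 and 4970 in KO on that scale. The groups did not overlap, and the log2 fold change was 0.53 ± 0.16 (95% interval 0.18 to 0.89, limma adjusted p = 0.0593, and from 3.80e-06 to 1.00 over the 37 settings). Eif3b, another core subunit, stood at 1559, 1387, 1442 and 1304 in Het and 1563, 1491, 1248 and 1287 in KO (−0.03 ± 0.13). Reads of Eif3c per read of Eif3b were 2.13, 2.44, 2.41 and 2.30 in Het and 3.78, 2.99, 3.16 and 3.86 in KO, so that the ratio of these subunit transcripts did not overlap between groups whatever the scaling. Reads of Eif3e per read of Eif3l, both peripheral subunits, likewise were 0.891, 0.782, 1.01 and 1.08 in Het and 1.45, 1.19, 1.81 and 1.37 in KO. The gene pairs were picked after their values were seen, so these ratios are given without a test.

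Among the other eIF3 subunits, Eif3d, Eif3e and Eif3m did not overlap between groups under expressed-gene scaling. Eif3e stood at 586 to 751 in Het and 828 to 1490 in KO and Eif3m at 383 to 508 and 508 to 980, where the highest Het and the lowest KO value were nearly equal, and in both KO 3 was by far the highest library. Their log2 fold changes were 0.55 ± 0.18 and 0.51 ± 0.19 (limma adjusted p = 0.0733 and 0.102). Eif3a, the largest subunit and the one with the highest mean count, stood at 6051, 5754, 6324 and 5594 in Het and 8210, 7589, 3444 and 7989 in KO. It was thus above all Het libraries in KO 1, KO 2 and KO 4 and below them all in KO 3 (0.12 ± 0.26, 95% interval −0.46 to 0.70). Eif3j2, the lowest member, with 10 to 83 reads a library, had deposited normalized counts of 19.2, 12.5, 34.3 and 9.72 in Het and 43.9, 107.4, 24.3 and 14.3 in KO. KO 2 stood apart there, the groups overlapped, and the log2 fold change of 1.05 ± 0.42 gave a limma adjusted p of 0.434 (unadjusted p = 0.0117, exact permutation p = 0.200). Eif3f, Eif3g, Eif3h, Eif3i, Eif3j1, Eif3k and Eif3l overlapped, with log2 fold changes from −0.07 to 0.38 under expressed-gene scaling and from 0.17 to 0.62 under the deposited one.

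The cap-binding proteins had the lowest median of any role under the deposited scaling, at 0.19, and a negative one, −0.06, under expressed-gene scaling, with no call. Eif4e, which binds the cap in eIF4F, stood at 658, 651, 711 and 718 expressed-scaled counts in Het and 633, 632, 951 and 477 in KO, with KO 3 highest and KO 4 lowest of all libraries. Its log2 fold change was 0.18 as deposited and −0.07 ± 0.18 under expressed-gene scaling (95% interval −0.46 to 0.32, limma adjusted p = 0.823). Eif4e2, which represses some messages, had 0.19 and −0.05 ± 0.12 in the same order. Eif4e3 stood at 136, 110.1, 134 and 143 in Het and 122, 130, 163 and 140.2 in KO, with overlapping groups (deposited log2 fold change 0.32 ± 0.43, limma adjusted p = 0.958).

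The proteins that hold eIF4E back gave the 1 member called lower. Eif4ebp2 encodes an eIF4E-binding protein that mTOR phosphorylation releases (chromosome 10, 61428491 to 61452661, minus strand). Its deposited normalized counts were 466, 609, 669 and 416 in Het and 776, 938, 184 and 292 in KO, with KO 1 and KO 2 above and KO 3 and KO 4 below every Het library. Under expressed-gene scaling they were 603, 662, 623 and 625 in Het and 461, 526, 344 and 471 in KO, with every KO library below every Het library. The log2 fold change there was −0.50 ± 0.13 (SE; 95% interval −0.79 to −0.20; limma adjusted p = 0.0404; two-sided exact permutation p = 0.0286), and it was −0.25 under the deposited scaling (limma adjusted p = 0.967), −0.47 with TMM and −0.55 with quantile scaling but 0.02 with DESeq2. Over the 37 settings it was called lower in 8 and higher in 1 (without KO 3 and KO 4, deposited scaling), with adjusted p from 0.00623 to 1.00, and its log2 fold change ran from −1.19 to 0.69, positive in 4. With expressed-gene scaling the call was kept without KO 2 (limma adjusted p = 0.0193) or KO 3 (0.0276) and lost without Het 1 (0.101), Het 2 (0.118), Het 3 (0.0922), Het 4 (0.0846), KO 1 (0.0862) or KO 4 (0.0572). In the libraries of both sexes only it was −0.38 (0.130). Reads of Eif4ebp2 per read of Eif4e were 0.920 ± 0.0678 in Het and 0.727 ± 0.266 in KO and overlapped, KO 4 being at 0.986.

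The other eIF4E-binding proteins were not called. Eif4ebp1 stood at 310, 264, 318 and 209 expressed-scaled counts in Het and 343, 272, 453 and 241 in KO, which overlapped (0.23 ± 0.20, limma adjusted p = 0.481). Eif4ebp3, below the mean of 10, had deposited normalized counts of 6.41, 1.25, 2.57 and 3.24 in Het and 2.69, 5.18, 2.21 and 1.79 in KO. Eif4enif1, which carries eIF4E into the nucleus, had a log2 fold change of 0.14 ± 0.12 with overlapping groups. Whether Eif4ebp1 and Eif4ebp2 differ in their response was not tested.

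In each of the eIF4G scaffolds, KO 3 was the lowest of the KO libraries, and none was called. Eif4g2, which lacks the eIF4E-binding site and has the highest mean count of the group, stood at 5898, 6482, 7411 and 7177 expressed-scaled counts in Het and 8665, 7995, 6818 and 7810 in KO (0.21 ± 0.17, limma adjusted p = 0.397). Eif4g1 (chromosome 16, 20668313 to 20692884), the main scaffold of eIF4F, stood at 4883, 4379, 4577 and 4171 in Het and 4234, 4496, 2549 and 3591 in KO, with KO 3 and KO 4 below all Het libraries and KO 1 and KO 2 among them. Its log2 fold change was −0.06 as deposited, −0.31 ± 0.19 under expressed-gene scaling (95% interval −0.73 to 0.11, limma adjusted p = 0.294) and 0.27 with DESeq2. Reads of Eif4g1 per read of Eif4g2 were 0.828, 0.675, 0.618 and 0.581 in Het and 0.489, 0.562, 0.374 and 0.460 in KO, all 4 KO ratios being lower. This pair too was chosen after its values were seen. Eif4g3 stood at 2885 to 3574 in Het and at 4252, 3324, 1931 and 4138 in KO.

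The helicase eIF4A and its cofactors overlapped between groups in each of the 5 genes, and none was called. Eif4a2 stood at 2791, 3084, 3231 and 3430 expressed-scaled counts in Het and 2314, 3255, 4016 and 2795 in KO, with the lowest and the highest library both KO (0.20 under the deposited and −0.04 ± 0.18 under expressed-gene scaling). Eif4a1 stood at 1340, 1452, 1423 and 1320 in Het and 1469, 1456, 2024 and 1280 in KO (0.15 ± 0.15, limma adjusted p = 0.520). The log2 fold changes of Eif4a3, Eif4b and Eif4h under expressed-gene scaling were 0.05, 0.15 and 0.06. Eif4a1, Eif4a2, Eif4g2 and Eif5 share exon bases with small nucleolar RNA genes on the same strand, whose reads a total RNA library also holds. The shared stretch was 150 bases (1.48%) in Eif4g2 and 127 bases (1.86%) in Eif5, but only 1 base (0.014%) in Eif4g1.

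The eIF5A genes and Eif6 close the list. Eif5a stood at 1519, 1444, 1881 and 1500 expressed-scaled counts in Het and 1760, 1645, 2201 and 1251 in KO, with KO 4 lowest of all libraries (0.09 ± 0.18, 95% interval −0.29 to 0.48). Eif5a2 (chromosome 3, 28781276 to 28798846) had 51 to 275 reads a library and stood at 84.5, 88.4, 89.4 and 101 in Het and 146, 140.0, 138 and 132 in KO on that scale, with no overlap (90.8 ± 7.06 and 139 ± 6.10, SD, n = 4; exact permutation p = 0.0286). On that scale all KO values lay above all Het values in 11.7% of the 6697 well-expressed genes, which leave out Eif5a2. The mean of Eif5a2 was under 200, so that limma tested it only on the full set of genes. There the log2 fold change was 0.85 ± 0.42 under the deposited scaling (limma adjusted p = 0.711) and 0.63 with TMM (limma adjusted p = 0.417). Eif6 stood at 669, 647, 639 and 513 in Het and 743, 607, 887 and 437 in KO, which overlapped (0.07 ± 0.20, limma adjusted p = 0.819).

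KO 3 differed from the other libraries by transcript length, among the initiation factors as among other genes. Relative to the Het mean under expressed-gene scaling, members with up to 2.5 kb of merged exons (n = 9) had a median of 0.61 in KO 3, those of 2.5 to 5 kb (n = 18) 0.42 and longer ones (n = 20) 0.24. The well-expressed genes had 0.60 (n = 741), 0.15 (n = 2160) and −0.18 (n = 3750) in the same length classes. In KO 4 the medians of all these genes ran the other way, at −0.14, −0.04 and 0.06. The lowest 5 members in KO 3, Eif4ebp2, Eif4g1, Eif3a, Eif4g3 and Eif5b, have 5.78, 7.30, 8.73, 11.1 and 9.75 kb of merged exons. The ratio of reads of Eif3a (8.73 kb) to Eif3h (1.61 kb), a pair chosen after its values were seen, was 2.59 in KO 3 and 8.52 to 13.1 in the other 7 libraries. The part of length, and of the high mitochondrial ribosomal RNA share of this library, in the comparison of KO with Het was not tested. Leaving out KO 3, limma with expressed-gene scaling called 6 members higher (Eif1, Eif2s2, Eif3a, Eif3c, Eif3e and Eif5) and 1 lower (Eif4ebp2), of 611 and 503 called among all genes.

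**Figure D4:**
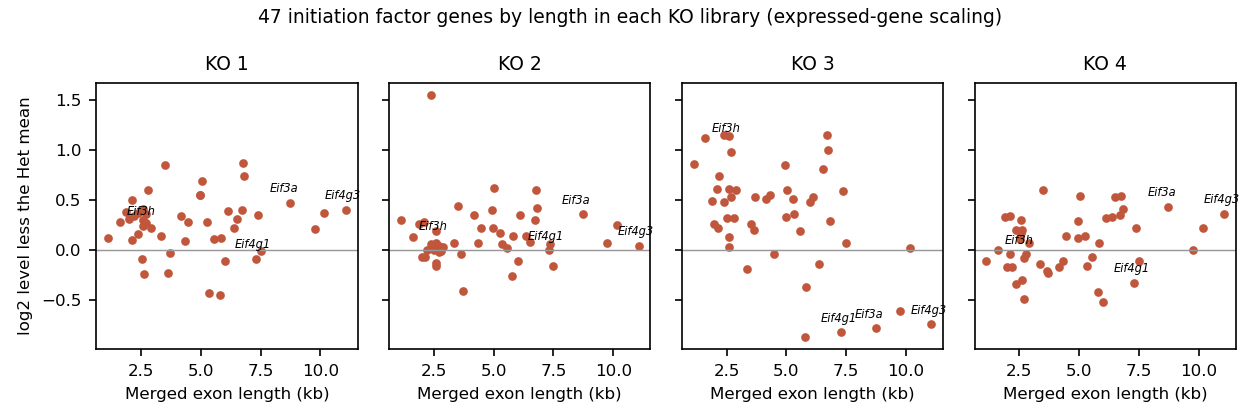
Each point is 1 of the 47 genes in 1 KO library, with its length in kilobases of merged exons against its log2 level less the Het mean under expressed-gene scaling. In KO 3 most short genes lie above 0 and the long genes Eif4g1, Eif3a and Eif4g3 lie below −0.5, while in KO 1, KO 2 and KO 4 Eif3a and Eif4g3 lie at or above 0.

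Of 41 tested genes around initiation (eIF2 kinases and phosphatase subunits, eIF2 gamma, poly(A) binding, helicases, mTOR and MNK control, elongation, termination and eIF5A modification), limma called 0 as deposited (at an unadjusted p under 0.05, 2 were higher and 0 lower), edgeR 0 (2 and 0) and DESeq2 1. Under expressed-gene scaling limma called 2 higher and 1 lower of 31, near the 6.03% and 4.24% of all genes. Ppp1r15a, which encodes the inducible phosphatase subunit GADD34 that removes phosphate from eIF2 alpha, stood at 1898, 1652, 1715 and 1522 expressed-scaled counts in Het and 7793, 3449, 4177 and 4893 in KO, every KO library being above every Het library under the deposited scaling as well. It was higher by 1.52 ± 0.23 on the log2 scale (SE, limma adjusted p = 0.00459), with 1.76 under the deposited scaling (adjusted p = 0.259) and 2.07 by DESeq2 (adjusted p = 0.00374). Over the 37 settings its log2 fold change was positive in 37 and called in 19, with adjusted p from 2.65e-15 to 1.00.

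Eif2ak3, which encodes PERK, the eIF2 kinase of the endoplasmic reticulum, stood at 3097, 2668, 2715 and 2475 in Het and 1715, 2151, 1501 and 958 in KO on the expressed scale. It was lower by −0.85 ± 0.22 (limma adjusted p = 0.0351) and was −0.60 under the deposited scaling (adjusted p = 0.938), and the call was lost without any 1 Het library (0.0657 to 0.114) or without KO 1 (0.0700), and over the 37 settings it was made in 9 (0.000136 to 1.00). The direction of Eif2ak3 turned in 2 of the 37 settings, at 0.53 without KO 3 and KO 4 and 0.55 in the libraries of both sexes under the deposited scaling, and it was −0.21 with DESeq2. Eif2ak2, which encodes PKR, stood at 566, 573, 522 and 716 in Het and 1056, 711, 574 and 1148 in KO and overlapped (0.51 ± 0.21, limma adjusted p = 0.127). Paip1, a partner of the poly(A)-binding protein and of eIF4A, stood at 335, 356, 392 and 419 in Het and 526, 466, 589 and 484 in KO without overlap. It was higher by 0.46 ± 0.12 (limma adjusted p = 0.0362), with 0.70 under the deposited scaling (adjusted p = 0.899), and the call was lost without any 1 Het library (0.0542 to 0.122), without KO 1 (0.0934) or without KO 4 (0.0501). Over the 37 settings Paip1 was called in 8 (7.71e-06 to 1.00). Paip2, which competes for the same protein, overlapped (0.17 ± 0.17). Of the scanning helicases, Dhx29 had 0.37 ± 0.15 (limma adjusted p = 0.128) and Ddx3x 0.10 ± 0.17.

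Some of these values may take in reads of other genes. Opposite-strand genes share 43.3% of the exon bases of Eif3d (Gm17638), 19.0% of Eif3j1 (Spg11), 16.8% of Eif5b (Rev1), 15.3% of Eif1ad (Banf1) and 12.7% of Eif1b (D830035M03Rik). The kit marks strand, but whether the counting used it is not stated in the sources used here, so reads of these pairs cannot be told apart. Protein-coding genes on the same strand share 67.3% of the exon bases of Eif4ebp3 (AC115631.1), 14.8% of Eif4e3 (Gm20696) and 47.5% of Dohh (Gm48551). How reads in those stretches were counted is not stated either, so the low counts of Eif4ebp3 may lack some of its reads.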

How the data were processed

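RNA was measured in 8 libraries of sorted mouse beta cells, 4 Het and 4 KO, grouped by their titles. Per the labels' protocols they were made from total RNA with a stranded kit for pico amounts (SMARTer, version 3). The submitters' processing notes list build mm10, the aligner STAR 2.7.3a, HTSeq and UMI-tools, and FastQC 0.11.8 and DESeq2 1.28.1. The annotation, counting mode and removal of duplicates are not given in the sources used here. The authors deposited normalized counts, a signal that is the count of a gene divided by 1 size factor per library; all values (100%) were whole multiples of 1 read within 0.001, so whole reads were recovered. Depth was 5370765 to 15883473 reads. No pair of replicates looked like one library deposited again, since chi-square over its degrees of freedom was at least 3.15 for Het pairs and 24.6 for KO pairs. Intervals cover the spread between libraries.

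Here limma 3.58.1 (R 4.3.3, eBayes with trend and robust settings, two-sided) was run on log2(value + 1) of all genes with a mean of at least 10, with Benjamini-Hochberg adjustment over all genes tested and a threshold of 0.05. Fold changes on that scale understate low genes. In the fit on values as deposited, genes showed no spread of variances beyond the trend. Its p-values thus rest mainly on the spread that the trend gives at a gene's mean level, and little on the gene's own spread. The standard error there was 0.42 for Eif3j2 and 0.66 for Eif3a. Expressed-gene scaling took TMM factors from the 6697 genes whose mean was 200 or more. Count tests were edgeR 4.0.16 and DESeq2 1.42.0 on whole reads. Further alternatives were a replicate block, leaving out libraries, quantile and TMM scaling, pseudocounts of 0.5 and 8, a minimum mean of 50 or none, and eBayes with neither trend nor robust settings. Settings without a pair of KO libraries, and expressed-gene scaling combined with both-sex libraries, other eBayes settings or a pseudocount of 8, were added after seeing the data. The scripts were tested on simulated data.

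All members are named by role. Values in every library are given for members called under the deposited, TMM or expressed-gene scaling, for the highest mean and smallest p of each role, and for the eIF4E-binding proteins; others named were chosen after their values were seen. Neighbouring genes are named if called or among the 2 smallest p of their list. The members and lists were chosen with earlier results of these data known. Coordinates and merged exon lengths are from GENCODE M21 (mm10, counted from 1; 42961 of 44343 symbols matched) and promoters from RefSeq (GRCm38.p6).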

Additional observations from a re-analysis of the deposited data

Results flagged for a closer look

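Over 102 groups of 4 libraries (each member in each genotype under the deposited scaling, and 4 summaries), 2 had a library far from the other 3 by Dixon's criterion at 95%; chance gives about 1 in 20. Eif2b2, an eIF2B subunit, stood at 133 deposited normalized counts in Het 4 and 191 to 199 in the other Het libraries. Eif3e, an eIF3 subunit, stood at 747 in Het 3 and 501 to 539 in the other Het libraries. Het 4 was the lowest and Het 3 the highest of the Het libraries in the level of expressed genes, and under expressed-gene scaling Eif2b2 in Het 4 (199) and Eif3e in Het 3 (696) lay within the range of the other Het libraries.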

How the results depend on the processing

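Under the deposited scaling, the counts of 0 members called higher and 0 lower did not change with pseudocounts of 0.5 or 8, no filter, a mean of at least 50, TMM scaling, eBayes without trend or robust settings, edgeR or DESeq2, and the median log2 fold change stayed between 0.24 and 0.61. Members called higher were 3 with quantile scaling, and 1 higher and 1 lower with expressed-gene scaling, with or without a pseudocount of 8. With that scaling and no trend or robust settings they were 4 (Eif1, Eif2s2, Eif3c and Eif5) and 1, where 393 and 260 of the 6697 genes were called higher and lower. In the libraries of both sexes only (Het 2 to Het 4, KO 1 and KO 2), 45 members were called higher with a median of 1.19 under the deposited scaling and 0 higher and 0 lower with expressed-gene scaling (median 0.19). Of the genes at large, 8464 of 21498 tested and 78.3% of the well-expressed ones were called higher there under the deposited scaling, and 0 with expressed-gene scaling. Leaving out KO 3 and KO 4 gave 47 higher with a median of 1.23 (89.8% of the well-expressed genes were called higher). With expressed-gene scaling it gave 2 higher (Eif3c and Eif5), where 134 of the 6697 genes were called higher. Leaving out KO 1 and KO 2 gave 2 lower with a median of −0.38 (1602 of the 21498 genes were called lower). With expressed-gene scaling it gave 1 lower (Eif4ebp2), where 422 of the 6697 genes were called lower. Eif4g1 was at 0.99 in the libraries of both sexes only (limma adjusted p = 0.0250) and at 0.99 without KO 3 and KO 4 (0.00510), where Eif4ebp2 was at 0.69 (0.0300). With all libraries both were negative by limma and edgeR and positive by DESeq2. The cause was not tested. Leaving out 1 library at a time gave 0 to 1 members called higher (Eif3j2 without KO 4), 0 lower and a median of 0.16 to 0.71 under the deposited scaling, and 0 to 6 higher (0 without Het 1, Het 2 or KO 1, 2 without KO 4, 3 without KO 2 and 6 without KO 3), 0 to 1 lower (1 without KO 2 or KO 3) and a median of 0.13 to 0.24 with expressed-gene scaling. The share of the 6697 genes called higher with expressed-gene scaling then ran from 1.81% (without Het 1) to 9.65% (without KO 2).

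The replicate numbers were not used as pairs, because deviations from the group means of libraries with the same number correlated at 0.22, −0.05, 0.13 and 0.28, not all above 0.1. KO 1, KO 3 and KO 4 each correlated best with the Het library of their own number and KO 2 with Het 3, which is a hint from the data and not from the design. With the replicate block 0 members were called under the deposited scaling, and 3 higher (Eif2s2, Eif3e and Eif3m) and 1 lower (Eif4ebp2) with expressed-gene scaling. Of the 6697 genes, 499 were called higher (7.45%) and 439 lower in that last fit.

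The number of libraries and the spread of their levels limit the comparison: the members' level under the deposited scaling had an SD of 0.32 on the log2 scale within Het and 0.89 within KO.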

Other observations

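Beyond initiation, the steps that follow it held no call at the chosen threshold. Of 8 elongation genes limma called 0 as deposited (at an unadjusted p under 0.05, 1 was higher and 0 lower), and edgeR and DESeq2 called 0 (1 and 0 each), with a median log2 fold change of 0.28, beside 0.05 for all genes tested and 0.24 for the well-expressed ones. Eef1e1, a component of the tRNA synthetase complex, stood at 41.4, 74.8, 43.1 and 82.7 expressed-scaled counts in Het and 113, 58.8, 167 and 106 in KO, where KO 2 fell within the Het range (deposited log2 fold change 1.08, limma adjusted p = 0.353). Eef1a2, the muscle and neuron form of the elongation factor that delivers tRNA, stood at 25.6, 17.5, 17.1 and 10.5 deposited normalized counts in Het and 11.7, 10.4, 6.62 and 9.53 in KO, which overlapped (−0.79, limma adjusted p = 0.847). Under expressed-gene scaling its counts were 15.8 to 33.1 in Het and 5.80 to 15.4 in KO, with no overlap, on 6 to 20 reads a library (exact permutation p = 0.0286). On that scale all KO values lay below all Het values in 10.3% of the 6697 well-expressed genes, which leave out Eef1a2. Of 7 termination and recycling genes 0 were called and the median was 0.39; Mcts1 and Denr, partners in ribosome recycling, had 0.65 and 0.54 (limma adjusted p = 0.880 and 0.937).

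Of 8 genes of mTOR and MNK control, which act on eIF4E and its binding proteins, 0 were called and 4 were positive under the deposited scaling, with a median log2 fold change of 0.04, and under expressed-gene scaling 2 of 7 were positive, with a median of −0.15. Rps6kb1 and Mknk1, kinases of S6 and of eIF4E, had 0.37 and 0.34 as deposited (limma adjusted p = 0.960 and 0.961) and were the 2 positive genes under expressed-gene scaling, at 0.13 and 0.10. The lowest values there, named after they were seen, were those of Pdcd4, an eIF4A inhibitor, at −0.50 ± 0.18 (limma adjusted p = 0.0825, overlapping groups) and Rptor, the scaffold of mTOR complex 1, at −0.31 ± 0.11 (limma adjusted p = 0.0826, every KO library below every Het library). They were −0.26 and −0.07 as deposited. Mknk2, an eIF4E kinase with a mean below 200, stood at 185 to 235 expressed-scaled counts in Het and 134 to 163 in KO, also without overlap. On that scale all KO values lay below all Het values in 10.3% of the 6697 well-expressed genes, which leave out Mknk2. Under the deposited scaling Mknk2 was at −0.21 (limma adjusted p = 0.968). Dohh and Dhps, which make the hypusine of eIF5A, had 0.72 and 0.19 there (limma adjusted p = 0.841 and 0.970), at 7.50 to 19.2 and 68.9 to 123 deposited normalized counts in Het.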
